A study of Homo sapiens with 12 samples.

Results

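The 8 genes described here code for parts of the NODAL pathway and were chosen by name: every row of the gene count table whose gene name was NODAL, TDGF1, LEFTY1, LEFTY2, CER1, FOXH1, MIXL1 or EOMES. All 8 were found once among 63241 genes, and all 8 were among the 15614 genes with enough counts to be tested. They hold a ligand (NODAL), its co-receptor (TDGF1), 3 secreted antagonists (LEFTY1, LEFTY2 and CER1) and, beside what ligand, co-receptor and antagonist cover, 3 transcription factors (FOXH1, MIXL1 and EOMES). The study measured RNA from human testicular germ cell tumour lines by 3′ end sequencing, in which a read is made from the 3′ end of a transcript and the count does not scale with transcript length.

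There were 4 groups of 3 libraries labelled as biological replicates, all from lines whose genotype is given as wild type. 2102 EP, labelled embryonal carcinoma, was treated with I-BRD9 at 15 µM for 24 h or with the solvent DMSO for 24 h. TCam-2, labelled seminoma, was given the same treatments for 24 h. I-BRD9 is an inhibitor of the bromodomain of BRD9, a subunit of a chromatin remodelling complex of the BAF family. Each tumour type stands on 1 cell line, and 1 dose and 1 time were measured.

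NODAL is a secreted factor of the TGF-β family. It binds activin receptors with the help of the co-receptor TDGF1 (also called CRIPTO) and leads to phosphorylation of SMAD2 and SMAD3, which enter the nucleus with SMAD4 and bind DNA beside FOXH1. NODAL, LEFTY1 and LEFTY2 are themselves targets of this signal, so that the pathway turns on its own ligand and its own inhibitors. In the early embryo the pathway maintains pluripotent cells and, at high activity, leads to mesoderm and endoderm with the factors EOMES and MIXL1, and embryonal carcinoma is the pluripotent form of germ cell tumour.

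The promoters of 4 of the 8 genes were in the RefSeq promoter table (GRCh38.p14) and are shown for that reason. They were searched for letters that FOXH1, SMAD proteins and other factors are known to bind. The 250 bases before the start that this RefSeq table uses are given on the strand of the gene, 5′ to 3′, with matches to the motifs in capitals. That start is not always the end of the GENCODE gene given further on: the NODAL and EOMES windows lie inside the GENCODE gene, and the MIXL1 window runs into it.
NODAL, chr10:70441682-70441931, minus strand: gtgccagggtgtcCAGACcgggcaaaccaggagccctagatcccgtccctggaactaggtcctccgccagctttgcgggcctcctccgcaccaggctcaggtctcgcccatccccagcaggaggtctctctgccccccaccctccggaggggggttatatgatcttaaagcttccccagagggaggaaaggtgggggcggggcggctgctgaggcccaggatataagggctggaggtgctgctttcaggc
CER1, chr9:14722734-14722983, minus strand: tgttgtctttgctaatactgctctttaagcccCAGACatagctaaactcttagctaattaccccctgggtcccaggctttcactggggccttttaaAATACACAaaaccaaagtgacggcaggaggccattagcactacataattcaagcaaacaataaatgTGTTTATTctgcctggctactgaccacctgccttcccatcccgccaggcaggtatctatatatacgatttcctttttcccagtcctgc
MIXL1, chr1:226223414-226223663, plus strand: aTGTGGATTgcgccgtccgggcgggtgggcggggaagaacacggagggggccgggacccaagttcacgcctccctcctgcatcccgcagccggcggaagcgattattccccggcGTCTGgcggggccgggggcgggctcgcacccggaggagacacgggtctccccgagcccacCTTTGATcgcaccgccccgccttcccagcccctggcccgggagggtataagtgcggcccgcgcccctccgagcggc
EOMES, chr3:27722324-27722573, minus strand: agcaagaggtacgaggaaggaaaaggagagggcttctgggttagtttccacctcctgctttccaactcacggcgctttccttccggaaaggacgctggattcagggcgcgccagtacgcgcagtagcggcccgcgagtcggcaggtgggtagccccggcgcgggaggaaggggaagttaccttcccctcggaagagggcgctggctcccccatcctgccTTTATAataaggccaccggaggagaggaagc
On both strands, TGTNNATT was searched as the core that FOXH1 binds. SMAD proteins were represented by the letters CAGAC, known as the SMAD box, and by the GC-rich motif GGCGCC. The letters GGTGTGA stood for T-box factors and CTTTGAT for TCF/LEF factors. The octamer ATGCAAAT and the TATA box, written TATAAA, were searched as well. The CER1 window held the FOXH1 core once on each strand, at 88 to 81 and 154 to 147 bases before the start, and 1 SMAD box. The MIXL1 window held 1 FOXH1 core, 1 SMAD box and 1 TCF/LEF match, the NODAL window 1 SMAD box, and the EOMES window a TATA box match on the opposite strand. Of 35116 promoters of the same length, 9.88% held the FOXH1 core, 38% the SMAD box, 2.26% the TCF/LEF letters and 10.7% the TATA box. LEFTY1, LEFTY2, TDGF1 and FOXH1 were not looked at in this way, and a match is a description of the letters, not of binding.

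The libraries held 7290335 to 10053366 estimated counts each, so that 3 counts stand for 0.297 to 0.409 CPM. This unit is the count scaled to 1 fixed library total, after TMM scaling of the libraries, and all levels are given in it. Pearson's r of log2 CPM across genes between replicates was 0.971 to 0.981, and no library stood apart. With DMSO, TCam-2 had SOX2 at 17.1 CPM and SOX17 at 193 CPM, while 2102 EP had SOX2 at 468 CPM and SOX17 at 0.0774 CPM; SOX2 marks embryonal carcinoma and SOX17 seminoma. Under DMSO, 5 of 7 embryonal carcinoma markers were called lower in TCam-2 than in 2102 EP, but POU5F1, which seminoma also expresses, was called higher, at 695 CPM in TCam-2 and 386 CPM in 2102 EP. TNFRSF8, a further embryonal carcinoma marker, was at 1.33 CPM in TCam-2 and 0.825 CPM in 2102 EP and did not pass. All 6 seminoma markers tested were called higher in TCam-2. In this comparison 62.6% of all genes tested were called, and 30.8% were called lower in TCam-2. Tests are edgeR quasi-likelihood tests over all 15614 genes, with Benjamini-Hochberg adjusted p-values and a call at an adjusted p under 0.05; errors of log2 fold changes are standard errors (SE). The p-values measure the spread between libraries of single lines. In bulk RNA, fewer cells that express a gene and less RNA per cell cannot be told apart.

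In 2102 EP, I-BRD9 was followed by lower levels of the ligand, the co-receptor, the 3 antagonists, FOXH1 and MIXL1. These 7 of 8 genes were called lower and none higher (edgeR quasi-likelihood test). Of all genes tested, 36.8% were called in this line, 18.2% higher and 18.6% lower. The median log2 fold change of the 8 genes was −2.20, against 0.0025 over all genes tested. CER1 reached the count level of the low-count filter (1.16 CPM) in the DMSO libraries of 2102 EP alone, so that it entered the test through the group in which it was high. The summed level of the 8 genes was 91.6 to 99.0 CPM with I-BRD9 and 707 to 788 CPM with DMSO.

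**Figure D1:**
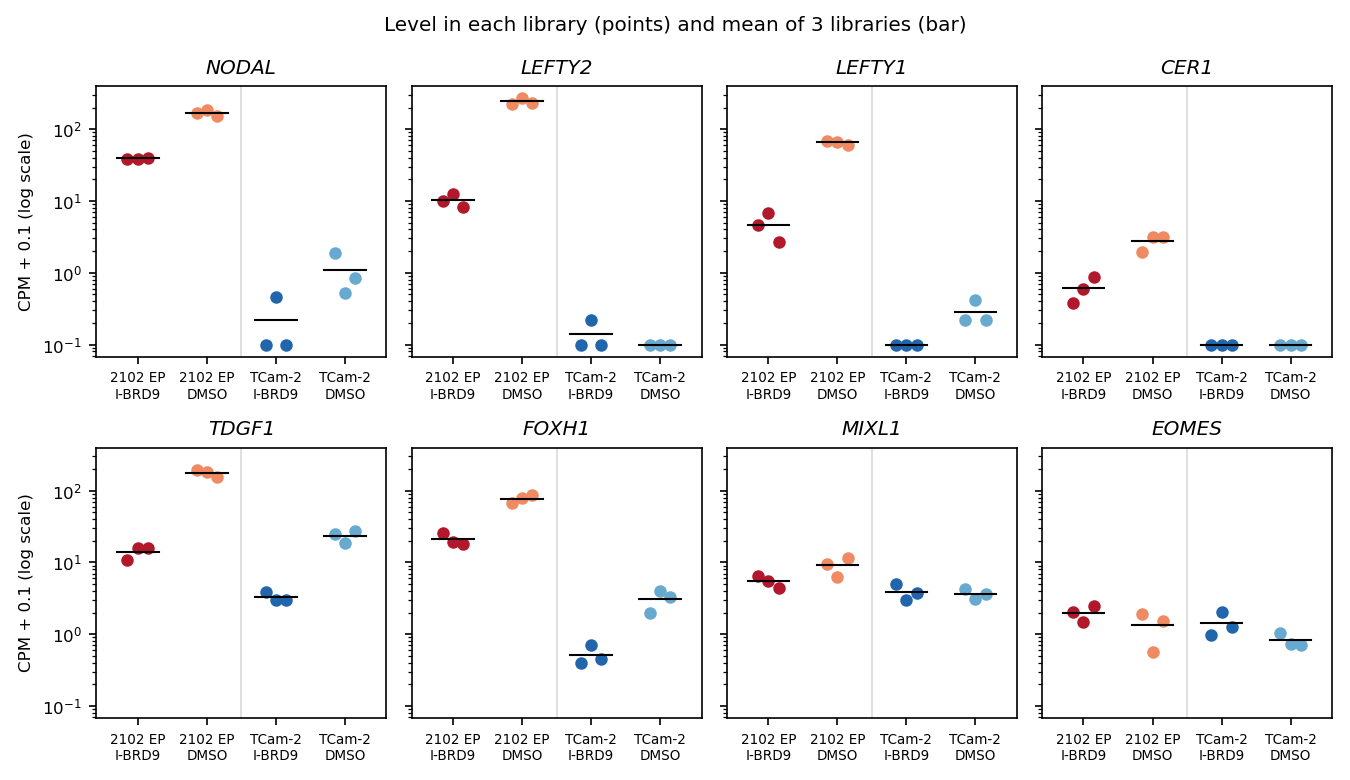
Level of each of the 8 genes in each library as CPM + 0.1 on a log axis, by line and treatment; points are libraries and bars the mean of 3 libraries. In 2102 EP the I-BRD9 libraries lie below the DMSO libraries for NODAL, LEFTY2, LEFTY1, CER1, TDGF1 and FOXH1 (6 of 8, where 23.2% of all genes tested were lower without overlap) and overlap with them for MIXL1 and EOMES, and in TCam-2 NODAL, LEFTY1, LEFTY2 and CER1 lie at or near 0. CER1 entered the test through the DMSO libraries of 2102 EP alone.

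NODAL (ENSG00000156574, chr10:70432315-70447951, minus strand, GRCh38) is the ligand. In 2102 EP it was at 38.7, 38.2 and 39.9 CPM with I-BRD9 and at 169, 183 and 153 CPM with DMSO. The groups lay far apart, and the I-BRD9 libraries differed from each other by less than the DMSO libraries did. The means were 38.9 ± 0.907 CPM with I-BRD9 and 168 ± 15.1 CPM with DMSO (SD, n = 3 each), a log2 fold change of −2.11 ± 0.14 (SE; adjusted p = 5.09e-09 by edgeR).

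TDGF1 (ENSG00000241186, chr3:46574534-46582463, plus strand) codes for the membrane-anchored co-receptor that brings NODAL to its receptors. It was at 10.7, 15.5 and 15.8 CPM in 2102 EP with I-BRD9 and at 192, 182 and 156 CPM with DMSO. Its log2 fold change was −3.64 ± 0.15 (SE; adjusted p = 3.81e-13 by edgeR), the 64th largest fall of all genes tested. TDGF1 is uncertain in part, because its estimated counts were not whole in all 12 libraries: reads were shared with TDGF1P3 (chrX:110520312-110523021), a transcribed processed pseudogene that is 97.96% identical to TDGF1 over the aligned transcript. TDGF1P3 was given 6.52 ± 0.655 CPM with I-BRD9 and 53.3 ± 3.13 CPM with DMSO in 2102 EP (SD, n = 3 each), which is 28.5 to 36.3% and 20.7 to 26.7% of the sum of both genes. With TDGF1 and its pseudogenes summed before the test, the log2 fold change in 2102 EP was −3.47.

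LEFTY2 and LEFTY1 lie beside each other on chromosome 1 and code for secreted inhibitors that bind NODAL and its co-receptor. LEFTY2 (ENSG00000143768, chr1:225936598-225941489, minus strand) was at 9.95, 12.3 and 8.03 CPM in 2102 EP with I-BRD9 and at 225, 269 and 234 CPM with DMSO. It had the 31st largest fall of all genes tested, with a log2 fold change of −4.58 ± 0.14 (SE; adjusted p = 4.20e-15 by edgeR). LEFTY1 (ENSG00000243709, chr1:225886282-225911382, minus strand) was at 4.50, 6.71 and 2.57 CPM with I-BRD9 and at 68.6, 66.2 and 60.7 CPM with DMSO. The groups of each gene lay apart, and LEFTY1 had a log2 fold change of −3.81 ± 0.23 (SE; adjusted p = 6.78e-10 by edgeR).

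The fall of the LEFTY genes was larger than that of NODAL, as seen within each library. There were 0.265 to 0.499 LEFTY counts for each NODAL count in the I-BRD9 libraries of 2102 EP and 1.74 to 1.93 in the DMSO libraries. LEFTY2 made up 64.7 to 75.8% of the LEFTY counts with I-BRD9 and 76.6 to 80.2% with DMSO. The LEFTY transcripts are 87.48% identical where they align, but their last 300 bases shared no window of 50 bases, and few reads were shared between genes. With the counts of both genes summed, the log2 fold change was −4.38.

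CER1 (ENSG00000147869, chr9:14719724-14722717, minus strand) codes for Cerberus, a secreted antagonist that binds NODAL and BMPs. It was low throughout, with 2, 5 and 7 counts in the 2102 EP libraries with I-BRD9 and 16, 26 and 24 counts with DMSO. These are 0.518 ± 0.255 CPM with I-BRD9 and 2.65 ± 0.714 CPM with DMSO (SD, n = 3 each), and the groups did not overlap. The log2 fold change was −2.30 ± 0.60 (SE; adjusted p = 0.00388 by edgeR). CER1 entered the test through the DMSO libraries of 2102 EP alone, so that the direction and the lack of overlap were in part set by the filter.

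FOXH1 (ENSG00000160973, chr8:144473412-144476335, minus strand) codes for the DNA-binding partner of SMAD2 and SMAD3. It was at 25.8, 18.9 and 17.7 CPM in 2102 EP with I-BRD9 and at 66.6, 78.8 and 86.9 CPM with DMSO. The groups lay apart, and the log2 fold change was −1.90 ± 0.16 (SE; adjusted p = 5.65e-09 by edgeR). The 3′ end of FOXH1 overlaps that of KIFC2, a kinesin gene on the other strand, at chr8:144473412-144474202, and whether strand was used in counting is not given in the sources used here. KIFC2 was at 7.56 ± 3.97 CPM with I-BRD9 and 2.60 ± 1.02 CPM with DMSO in 2102 EP (SD, n = 3 each), so that the neighbour was higher where FOXH1 was lower.

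MIXL1 and EOMES, factors of mesoderm and endoderm formation, had the smallest fold changes of the 8 in 2102 EP. MIXL1 (ENSG00000185155, chr1:226223618-226227054, plus strand) was at 6.41, 5.41 and 4.35 CPM in 2102 EP with I-BRD9 and at 9.38, 6.25 and 11.5 CPM with DMSO. The groups overlapped, and the log2 fold change of −0.75 ± 0.26 (SE; adjusted p = 0.0278 by edgeR) was no longer called when replicate 2 (0.0674) or 3 (0.113) of I-BRD9 or replicate 1 (0.0792) or 3 (0.165) of DMSO was left out. EOMES (ENSG00000163508, chr3:27715949-27722711, minus strand) had 14, 14 and 21 counts with I-BRD9 and 16, 4 and 11 counts with DMSO. Its levels of 1.88 ± 0.471 CPM with I-BRD9 and 1.24 ± 0.695 CPM with DMSO (SD, n = 3 each) overlapped, with a log2 fold change of 0.60 ± 0.50 (SE; 95% interval −0.43 to 1.63; edgeR adjusted p = 0.372).

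In TCam-2, the 8 genes started from lower levels, and 3 of them, NODAL, TDGF1 and FOXH1, were called lower with I-BRD9 and none higher (edgeR quasi-likelihood test). In a fit of the TCam-2 libraries alone 2 were called, since NODAL did not pass the low-count filter there. In this line 31.8% of all genes tested were called, and 16.5% were called lower. The median log2 fold change of the 8 genes was −1.42, against 0.0069 over all genes, but LEFTY1, LEFTY2, CER1 and NODAL had at most 3 counts in a group and their fitted values are no measure of size. The summed level of the 8 genes was 8.01 to 9.89 CPM with I-BRD9 and 26.7 to 35.6 CPM with DMSO.

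TDGF1 had the highest CPM of the 8 genes in TCam-2 with DMSO. It was at 3.76, 2.87 and 2.91 CPM with I-BRD9 and at 24.5, 18.4 and 27.4 CPM with DMSO. The groups lay apart, with a log2 fold change of −2.86 ± 0.22 (SE; adjusted p = 9.22e-10 by edgeR). TDGF1P3 was given 1.79 ± 0.704 CPM with I-BRD9 and 6.74 ± 1.53 CPM with DMSO (SD, n = 3 each), and with the pseudogenes summed the log2 fold change was −2.57.

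FOXH1 was at 0.297, 0.601 and 0.348 CPM in TCam-2 with I-BRD9 and at 1.89, 3.93 and 3.18 CPM with DMSO, a log2 fold change of −2.85 ± 0.49 (SE; adjusted p = 9.81e-06 by edgeR). KIFC2, on the other strand, was at 93.9 ± 5.37 CPM with I-BRD9 and 31.5 ± 3.98 CPM with DMSO (SD, n = 3 each), above FOXH1 in either group. NODAL had 0, 3 and 0 counts with I-BRD9 and 15, 4 and 6 counts with DMSO. The DMSO level was 8.65 times the I-BRD9 level (95% counting interval 2.64 to 44.8, which covers counting error only; edgeR adjusted p = 0.00686). All of its counts with I-BRD9 came from replicate 2 and most of those with DMSO from replicate 1, and without I-BRD9 replicate 2 the fitted log2 fold change of −2.96 became −6.09, since that group then held no counts.

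The antagonists were at the limit of detection in TCam-2. LEFTY1 had 0 counts in the 3 I-BRD9 libraries together and 5 counts in the DMSO libraries, at least 1.73-fold lower with I-BRD9 when 3 counts over the group are taken as the floor (edgeR adjusted p = 0.0655). It was called without I-BRD9 replicate 2 (0.0286) or 3 (0.0278) of 2102 EP, libraries that enter through the shared estimate of spread. LEFTY2 had 1 count with I-BRD9 and 0 with DMSO, and CER1 had 0 in both groups, so that no change was detectable at this depth. MIXL1 was at 4.94, 2.88 and 3.60 CPM with I-BRD9 and at 4.13, 2.97 and 3.55 CPM with DMSO, with a log2 fold change of 0.11 ± 0.29 (SE; 95% interval −0.49 to 0.71; edgeR adjusted p = 0.813). EOMES was at 0.890, 1.92 and 1.16 CPM with I-BRD9 and at 0.944, 0.637 and 0.612 CPM with DMSO, with overlapping groups and a log2 fold change of 0.83 ± 0.55 (SE; adjusted p = 0.264 by edgeR).

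**Figure D2:**
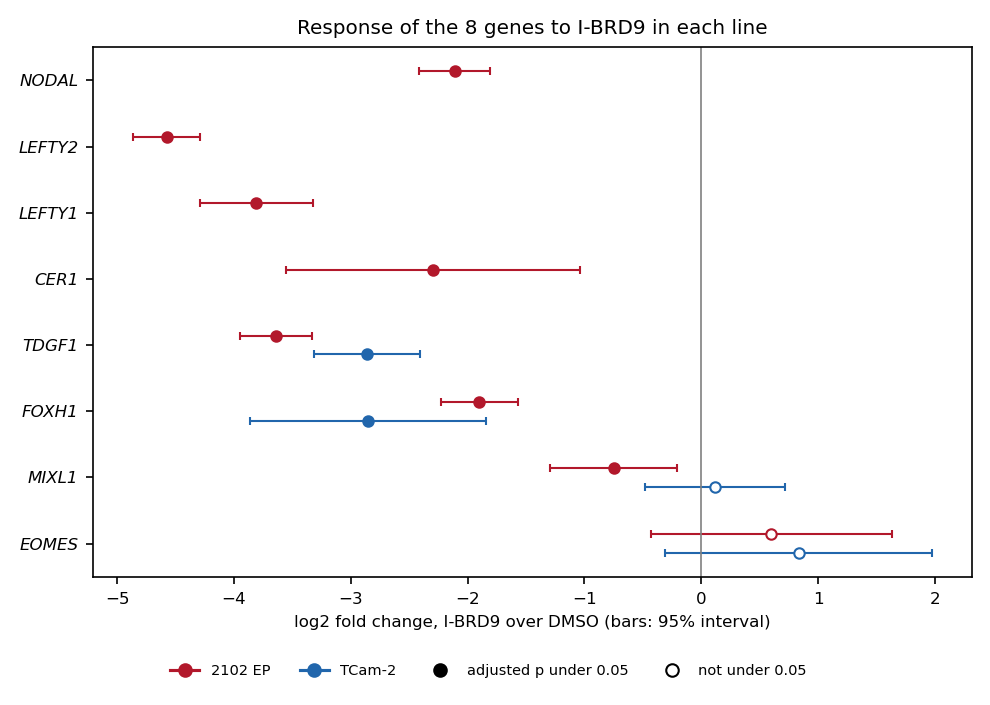
Log2 fold change of I-BRD9 over DMSO in 2102 EP and in TCam-2 for each of the 8 genes, with 95% intervals; filled points have an adjusted p under 0.05. NODAL, LEFTY2, LEFTY1 and CER1 are shown for 2102 EP alone, since a TCam-2 group held at most 3 counts, and TDGF1 and FOXH1 lie well below 0 in each line.

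No difference of the I-BRD9 effect between the lines (the effect in TCam-2 minus that in 2102 EP) was called for any of the 8 genes, with 13.1% of all genes tested called, 5.9% with a positive and 7.19% with a negative difference (edgeR quasi-likelihood test). At an unadjusted p under 0.05, 3 of the 8 passed: TDGF1, LEFTY2 and MIXL1. DESeq2 called 2 (TDGF1 and LEFTY2) and limma voom called 1 (LEFTY2). In TCam-2, LEFTY2 had 1 count with I-BRD9 and 0 with DMSO, so its difference is no measure of how the lines differ. NODAL, LEFTY1 and CER1 also had at most 3 counts in a TCam-2 group, so a difference for them could hardly be tested. The difference for TDGF1 was 0.78 ± 0.26 on the log2 scale (SE; 95% interval 0.24 to 1.33; edgeR adjusted p = 0.0595), the fall being smaller in TCam-2. It passed with the pseudogenes summed, at 0.91 (edgeR adjusted p = 0.00488), and TDGF1P3 alone differed by 1.10 ± 0.32 (SE; adjusted p = 0.0266 by edgeR). Single libraries decided these calls: TDGF1 passed without DMSO replicate 3 of 2102 EP (0.0474) or of TCam-2 (0.0364). TDGF1P3 did not pass when, in 2102 EP, replicate 2 of I-BRD9 (0.0547) or replicate 3 of DMSO (0.0521) was left out, nor when, in TCam-2, replicate 2 (0.135) or 3 (0.114) of I-BRD9 or replicate 2 of DMSO (0.0726) was. For FOXH1 the difference was −0.95 ± 0.51 (SE; 95% interval −2.01 to 0.12; edgeR adjusted p = 0.201), for MIXL1 0.86 ± 0.39 (SE; 0.06 to 1.67; edgeR adjusted p = 0.159) and for EOMES 0.24 ± 0.74 (SE; −1.30 to 1.77; edgeR adjusted p = 0.887). Each interval reaches past 1 in size on the log2 scale, so that a like response of the lines was not shown either.

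Compared under DMSO, the lines differed in 7 of the 8 genes, all lower in TCam-2 than in 2102 EP, with 62.6% of all genes tested called and 30.8% called lower (edgeR quasi-likelihood test). NODAL, LEFTY1, LEFTY2 and CER1 passed the low-count filter through the 2102 EP libraries, and so had to be higher there. LEFTY2 had 0 counts in the 3 TCam-2 libraries and 6076 in the 2102 EP libraries with DMSO, at least 2107-fold lower in TCam-2. NODAL was at 0.977 ± 0.705 CPM in TCam-2 and 168 ± 15.1 CPM in 2102 EP (SD, n = 3 each), a log2 fold change of −7.43 ± 0.36 (SE; adjusted p = 1.40e-14 by edgeR).

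The co-receptor differed less between the lines than the ligand and its LEFTY antagonists did. Under DMSO, TDGF1 was at 23.4 ± 4.57 CPM in TCam-2 and 177 ± 18.8 CPM in 2102 EP (SD, n = 3 each; log2 fold change −2.92 ± 0.14, SE). FOXH1 was at 3.00 ± 1.03 CPM in TCam-2 and 77.4 ± 10.2 CPM in 2102 EP, which is −4.67 ± 0.22 (SE) as a log2 fold change, and LEFTY1 had a log2 fold change of −8.31 ± 0.70 (SE). CER1 had 0 counts in TCam-2 and 66 in 2102 EP, at least 22.9-fold lower in TCam-2. MIXL1 was at 3.55 ± 0.580 CPM in TCam-2 and 9.04 ± 2.64 CPM in 2102 EP (log2 fold change −1.35 ± 0.27, SE; edgeR adjusted p = 0.000172), and EOMES at 0.731 ± 0.185 CPM in TCam-2 and 1.24 ± 0.695 CPM in 2102 EP did not pass (edgeR adjusted p = 0.243).

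Under I-BRD9, 6 of the 8 genes were called lower in TCam-2 than in 2102 EP, with 62.2% of all genes tested called and 31.1% called lower (edgeR quasi-likelihood test). Here too, NODAL, LEFTY1, LEFTY2 and CER1 had passed the low-count filter through 2102 EP libraries, CER1 through those with DMSO. Their direction between the lines was therefore largely set by the filter. MIXL1 had a log2 fold change of −0.48 ± 0.28 (SE; adjusted p = 0.135 by edgeR) and EOMES of −0.51 ± 0.49 (SE; adjusted p = 0.369 by edgeR), and neither passed. NODAL had 3 counts in TCam-2 and 1023 in 2102 EP, a level 351-fold higher in 2102 EP (95% counting interval 120 to 1705). TDGF1 had a log2 fold change of −2.13 ± 0.22 (SE) and FOXH1 of −5.62 ± 0.46 (SE) between the lines. LEFTY1 was at least 42.2-fold and CER1 at least 4.80-fold lower in TCam-2.

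Ordered by mean level, NODAL, LEFTY1, LEFTY2, CER1 and FOXH1 were highest in 2102 EP with DMSO, then in 2102 EP with I-BRD9, with TCam-2 below either. TDGF1 had another order, since TCam-2 with DMSO, at 18.4 to 27.4 CPM, stood above 2102 EP with I-BRD9, at 10.7 to 15.8 CPM. In MIXL1 and EOMES, every group overlapped its neighbours in the order of means.

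From a list of 62 further genes of the pathway, 51 were tested, and in 2102 EP 7 were called higher and 19 lower with I-BRD9, together 51% of those tested against 36.8% of all genes. In TCam-2, 10 were called higher and 14 lower, 47.1% against 31.8% of all genes. Their median log2 fold change was −0.27 in 2102 EP and −0.015 in TCam-2. CFC1, CFC1B, DAND5, INHBB, TGFB2, TGFB3, FGF8, FGF17, FOXA2, GSC and TBXT had too few counts to be tested.

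Among 11 ligands and extracellular partners, 3 were called higher and 5 lower in 2102 EP, and 2 higher and 4 lower in TCam-2. The shares called were 72.7% in 2102 EP and 54.5% in TCam-2, against 36.8% and 31.8% of all genes tested. GDF3, a ligand related to NODAL that also uses TDGF1, was at 22.2 ± 7.10 CPM with I-BRD9 and 420.2 ± 48.6 CPM with DMSO in 2102 EP (SD, n = 3 each), a log2 fold change of −4.26 ± 0.20 (SE; adjusted p = 3.37e-08 by edgeR). In TCam-2 GDF3 had 2 counts with I-BRD9 and 119 with DMSO, 61.8-fold higher with DMSO (95% counting interval 16.7 to 516). INHBE, an inhibin beta subunit gene, fell by 5.14 ± 0.68 on the log2 scale in 2102 EP, and INHBA, which codes for the subunit of activin A, by 2.54 ± 0.51 in TCam-2 (SE each). In 2102 EP, INHBE had 5 counts over the I-BRD9 libraries and 181 over the DMSO libraries. It reached the count level of the low-count filter in those DMSO libraries alone, so that it entered the test where it was high. TGFB1 was higher with I-BRD9 in either line, with log2 fold changes of 1.69 ± 0.39 in 2102 EP and 2.14 ± 0.55 in TCam-2, and so was FSTL3, a gene for a secreted activin inhibitor, with 1.26 ± 0.40 in 2102 EP and 1.49 ± 0.37 in TCam-2 (SE). TGFB1 in TCam-2 had 11, 1 and 2 counts with DMSO, and without DMSO replicate 1 its log2 fold change was 3.71. In 2102 EP, FSTL3 no longer passed when replicate 2 of I-BRD9 (edgeR adjusted p = 0.0683) or of DMSO (0.0906) was left out.

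**Figure D3:**
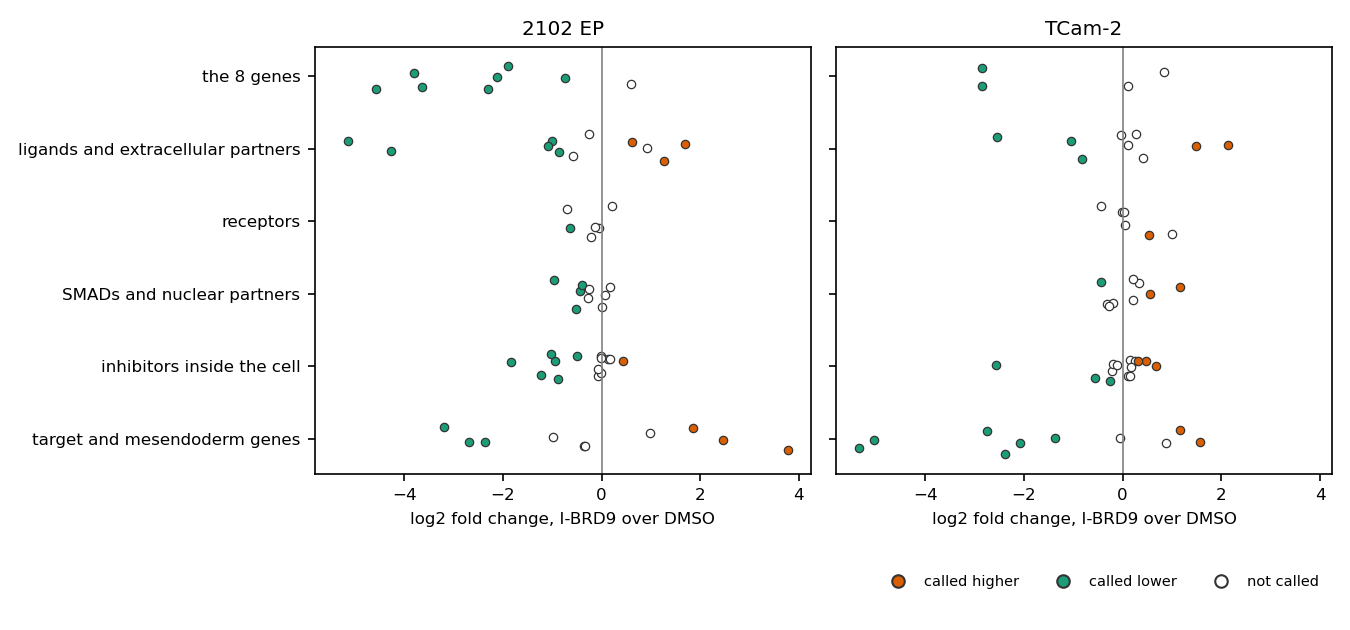
Log2 fold change of I-BRD9 over DMSO in 2102 EP (left) and TCam-2 (right) for the 8 genes and for the other tested pathway genes by role; filled points have an adjusted p under 0.05, and genes with at most 3 counts in a group are left out. In 2102 EP, 6 of the 8 genes lie at −1.90 or below, MIXL1 lies at −0.75 and EOMES above 0, while the receptors and the SMADs with their partners lie at −0.96 or above.

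Of 6 receptors tested, 1 was called in each line (16.7%, against 36.8% of all genes in 2102 EP and 31.8% in TCam-2), and it was ACVR2B, a type II receptor through which NODAL signals. It was at 36.0 ± 4.69 CPM with I-BRD9 and 56.1 ± 0.574 CPM with DMSO in 2102 EP, and at 85.9 ± 10.7 CPM with I-BRD9 and 59.4 ± 2.17 CPM with DMSO in TCam-2 (SD, n = 3 each). It was lower in 2102 EP (log2 fold change −0.64 ± 0.11) and higher in TCam-2 (0.53 ± 0.10), and the difference of 1.18 ± 0.15 was called (SE; adjusted p = 5.98e-06 by edgeR). ACVR1B, a type I receptor of NODAL, had log2 fold changes of −0.06 ± 0.22 in 2102 EP and −0.44 ± 0.19 in TCam-2 (SE), neither called.

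Of 9 SMADs and nuclear partners, 4 were called lower in 2102 EP (WWTR1, GTF2IRD1, DRAP1 and GTF2I), and in TCam-2 WWTR1 and SMAD3 were called higher and GTF2I lower. The shares called, 44.4% in 2102 EP and 33.3% in TCam-2, were near the 36.8% and 31.8% of all genes tested. DRAP1 did not pass with any of 4 libraries left out: replicate 1 (edgeR adjusted p = 0.124) or 2 (0.119) of I-BRD9, and replicate 1 (0.115) or 2 (0.165) of DMSO. SMAD3 did not pass when replicate 1 (0.0691) or 2 (0.0859) of I-BRD9 or replicate 1 of DMSO (0.0784) was left out. SMAD2, which carries the signal, had log2 fold changes of 0.17 ± 0.10 in 2102 EP and 0.21 ± 0.10 in TCam-2 (SE), neither called. WWTR1, also called TAZ, a transcriptional co-activator that holds SMAD complexes in the nucleus, was at 27.5 ± 3.44 CPM with I-BRD9 and 53.6 ± 5.54 CPM with DMSO in 2102 EP. In TCam-2 it was at 10.0 ± 1.04 CPM with I-BRD9 and 4.45 ± 0.667 CPM with DMSO (SD, n = 3 each). The effects of −0.96 ± 0.13 in 2102 EP and 1.17 ± 0.18 in TCam-2 went opposite ways, and their difference of 2.13 ± 0.22 was called (SE; adjusted p = 2.65e-07 by edgeR).

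Several inhibitors of the pathway inside the cell are known to be induced by the signal itself. Of 14 tested, SKI was called higher and DACT2, PMEPA1, TGIF1, SKIL, TGIF2 and SMAD7 lower in 2102 EP, while in TCam-2 SMAD7, SKI and SKIL were called higher and DACT2, TGIF2 and NCLN lower. The shares called were 50% in 2102 EP and 42.9% in TCam-2, against 36.8% and 31.8% of all genes tested. PMEPA1, a membrane protein gene induced by TGF-β that keeps SMAD2 and SMAD3 from the receptors, was at 61.4 ± 2.79 CPM with I-BRD9 and 143 ± 6.16 CPM with DMSO in 2102 EP (SD, n = 3 each; log2 fold change −1.22 ± 0.09, SE). SMAD7, an inhibitory SMAD, was at 19.7 ± 2.42 CPM with I-BRD9 and 28.0 ± 2.68 CPM with DMSO in 2102 EP, and at 14.4 ± 1.45 CPM with I-BRD9 and 9.03 ± 1.20 CPM with DMSO in TCam-2 (SD, n = 3 each). The difference between the lines was called for SMAD7 (1.17 ± 0.22, SE), SKIL (1.26 ± 0.15), PMEPA1 (1.00 ± 0.15), TGIF1 (1.19 ± 0.20) and NCLN (−0.39 ± 0.12), that is for 5 of 14 (35.7%, against 13.1% of all genes tested), and not for the other 9. SKIL in TCam-2 did not pass when replicate 1 (edgeR adjusted p = 0.0539), 2 (0.108) or 3 (0.0516) of I-BRD9 was left out, nor when replicate 1 (0.160) or 3 (0.113) of DMSO was, and NCLN did not pass when replicate 3 of I-BRD9 was (0.0693). The NCLN difference was lost without DMSO replicate 1 of 2102 EP (0.0661), I-BRD9 replicate 3 of TCam-2 (0.0557) or DMSO replicate 2 of TCam-2 (0.0503).

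**Figure D4:**
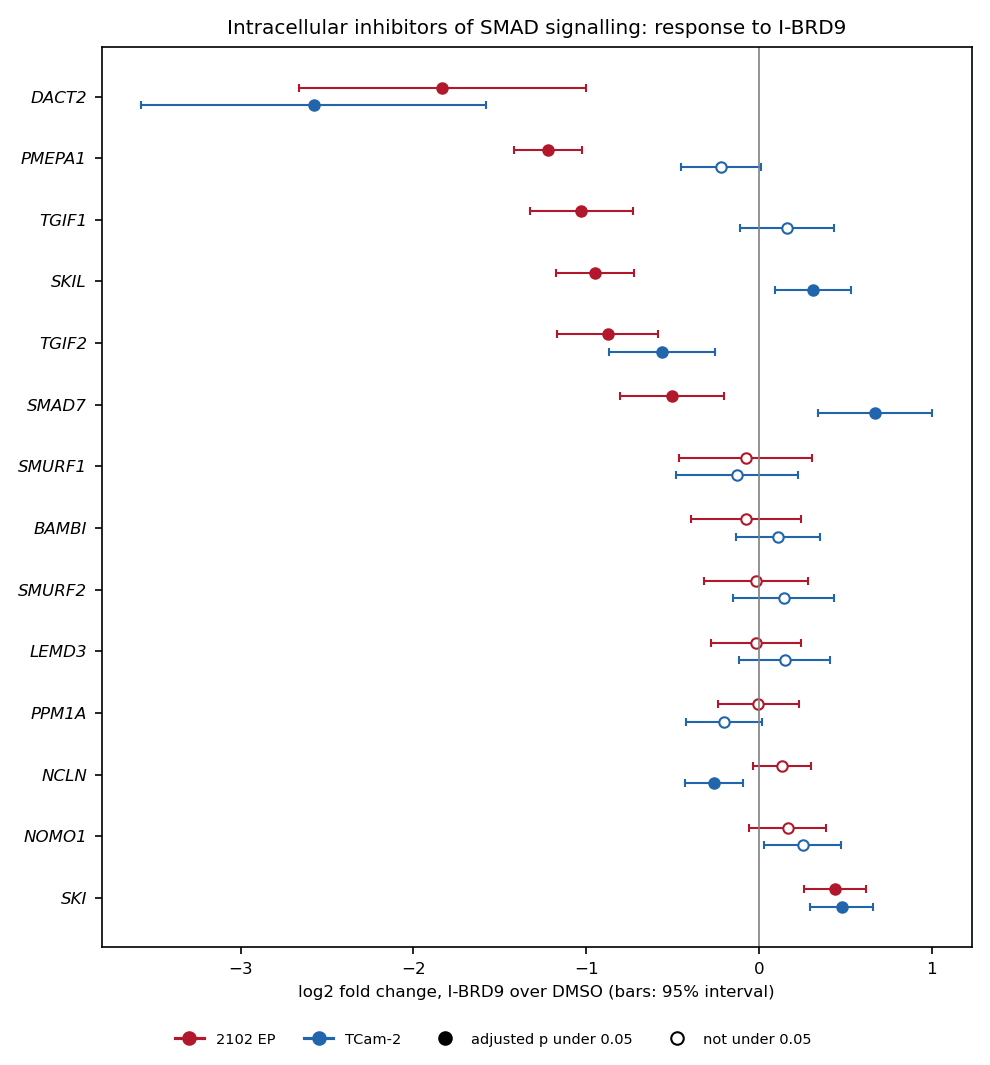
Log2 fold change of I-BRD9 over DMSO in 2102 EP and in TCam-2 for the 14 intracellular inhibitors of SMAD signalling, with 95% intervals; filled points have an adjusted p under 0.05. SKIL and SMAD7 lie below 0 in 2102 EP and above 0 in TCam-2, while DACT2 and TGIF2 lie below 0 in each line.

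Of 11 target and mesendoderm genes tested, 3 were called higher and 3 lower in 2102 EP, and 2 higher and 6 lower in TCam-2. The shares called were 54.5% in 2102 EP and 72.7% in TCam-2, against 36.8% and 31.8% of all genes tested. HAND1, a factor of extraembryonic and heart mesoderm, was higher in either line, with 73.6 ± 6.07 CPM with I-BRD9 and 5.31 ± 0.719 CPM with DMSO in 2102 EP and 547 ± 38.1 CPM with I-BRD9 and 183 ± 20.0 CPM with DMSO in TCam-2 (SD, n = 3 each). GATA6, an endoderm factor, was higher by 2.46 ± 0.68 on the log2 scale in 2102 EP (SE). Its counts there were low, at 3, 17 and 17 with I-BRD9 and 3, 2 and 1 with DMSO, so that I-BRD9 replicate 1 lay near the DMSO libraries. NANOG, the pluripotency factor, was at 19.3 ± 1.40 CPM with I-BRD9 and 175 ± 19.4 CPM with DMSO in 2102 EP, and at 12.8 ± 3.20 CPM with I-BRD9 and 524 ± 29.8 CPM with DMSO in TCam-2, with reads shared with other genes in part of the libraries. WNT3, a mesoderm-inducing ligand, fell by 2.68 ± 0.22 on the log2 scale in 2102 EP, and in TCam-2 the log2 fold changes were −5.05 ± 0.17 for CXCR4, −2.76 ± 0.27 for OTX2 and −2.39 ± 0.66 for HHEX (SE each). HHEX had 8 counts over the I-BRD9 libraries and 42 over the DMSO libraries of TCam-2. It reached the count level of the low-count filter in those DMSO libraries alone, so that it entered the test where it was high.

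Most embryonal carcinoma markers were called lower with I-BRD9 in each line, while seminoma markers were so only in part. The summed level of 7 embryonal carcinoma markers was 1502 to 1559 CPM with I-BRD9 and 2654 to 2713 CPM with DMSO in 2102 EP, and 609 to 627 CPM with I-BRD9 and 1183 to 1296 CPM with DMSO in TCam-2, with 6 of 7 called lower in each line, where 18.6% of all genes tested were called lower in 2102 EP and 16.5% in TCam-2. In 2102 EP, 7 seminoma markers summed to 139.6 to 149.9 CPM with I-BRD9 and 159.8 to 240.3 CPM with DMSO, and with I-BRD9 SOX17, PRAME and NANOS3 were at 0. They were near 0 with DMSO as well, with 2, 2 and 4 counts over 3 libraries. Of 6 seminoma markers tested in 2102 EP, only PRDM1 was called, and it was lower. In TCam-2 the seminoma markers summed to 1237 to 1404 CPM with I-BRD9 and 1489 to 1997 CPM with DMSO, with PDPN, PRAME, PRDM1 and SOX17 called lower and KIT higher. The 4 trophoblast markers summed to 4.02 to 5.31 CPM with I-BRD9 and 5.78 to 7.21 CPM with DMSO in 2102 EP, where KRT7 was called lower. In TCam-2 they summed to 76.1 to 77.5 CPM with I-BRD9 and 134 to 146 CPM with DMSO, with CGA and KRT7 called lower, and CGB3 was at 0 in every group. CGA had 10, 0 and 1 counts with I-BRD9 and 23, 27 and 40 with DMSO in TCam-2. It reached the count level of the low-count filter in those DMSO libraries alone, so that it entered the test where it was high. Of 7 fibroblast or stroma markers, DCN and LUM were at 0 in 2102 EP, and the list summed to 133 to 157 CPM with I-BRD9 and 230.3 to 256.8 CPM with DMSO there, and to 89.7 to 136 CPM with I-BRD9 and 191 to 198 CPM with DMSO in TCam-2. Most of the sum in 2102 EP was THY1, at 119 ± 11.4 CPM with I-BRD9 and 220 ± 12.0 CPM with DMSO (SD, n = 3 each). Of 4 tested, THY1 and COL1A2 were called lower in each line (50%). The sums of 5 blood markers and of 4 yolk sac markers stayed at or under 3.60 CPM in every library. CD68, the only blood marker tested, was called higher with I-BRD9 in 2102 EP, at 2.96 ± 0.983 CPM against 0.697 ± 0.506 CPM with DMSO (SD, n = 3 each). Mitochondrial genes took 10.8 to 11.4% of counts with I-BRD9 and 8.21 to 10.1% with DMSO in 2102 EP, and 6.07 to 7.76% with I-BRD9 and 7.02 to 7.40% with DMSO in TCam-2. The part of these shifts in the fall of the 8 genes was not tested.

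The genes most like each member over the 12 libraries were named by the highest Pearson's r of log2 CPM among 9555 genes with at least 10 CPM in a group, as a description in which the difference between the lines weighs most. For LEFTY2 these were LITAF (r = 0.998) and HPAT5 (r = 0.995). HPAT5, a long non-coding RNA gene of pluripotent cells, was at 2.52 CPM with I-BRD9 and 30.1 CPM with DMSO in 2102 EP and at or under 0.0387 CPM in the TCam-2 groups. For TDGF1 they were GCNT2 (r = 0.992) and U2SURP (r = 0.992), of which GCNT2 was at 18.3 CPM with I-BRD9 and 48.2 CPM with DMSO in 2102 EP and at 10.9 CPM with I-BRD9 and 22.4 CPM with DMSO in TCam-2. SURF6 and SPP1 were most like LEFTY1 (r = 0.993 and 0.992), SF3A3 and SCO1 most like NODAL (r = 0.993 each), LARP1B and DND1 most like CER1 (r = 0.986 and 0.983) and PTPRZ1 and POP7 most like FOXH1 (r = 0.995 each). MIXL1 came nearest to EDARADD (r = 0.962) and BRWD3 (r = 0.943), and EOMES had no close match, with MRTFA at 0.856 and EIF4BP6 at 0.831.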

How the data were processed

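RNA was extracted from the 12 cultures and made into QuantSeq 3′ libraries, per the labels' protocols. The authors deposited estimated counts, with a column for each library. The submitters' processing notes name Salmon 1.9.0, STAR 2.7.11b, DESeq2, R 4.2.0, Trim Galore and the genome build GRCh38. Which annotation was used, and whether strand was, is not given in the sources used here. Of the 63241 gene IDs, 92.1% were found in GENCODE release 29, which gave the coordinates.

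Estimated counts were rounded, scaled by TMM and filtered by filterByExpr, and 15614 genes were tested with edgeR 4.0.16 in R 4.3.3 (robust quasi-likelihood fit of 4 group means over all 12 libraries, 8 residual degrees of freedom). Benjamini-Hochberg adjustment ran over all genes tested in each of 5 comparisons: I-BRD9 against DMSO in each line, the difference of these effects, and TCam-2 against 2102 EP under each treatment. CPM came from unrounded counts, standard errors from the weights of the fit, and intervals around log2 fold changes are unadjusted. Where a group had at most 3 counts, a ratio with its 95% counting interval is given, or, with 0 counts, a bound with 3 counts over the group as the floor. A count more than 0.01 from a whole number marked shared reads. The test was also run on simulated counts with known changes. Alternatives were other scalings, no low-count filter, DESeq2 1.42.0, limma 3.58.1 (voom), fewer libraries, replicate blocks and summed counts of like genes. Following the pathway genes and TDGF1P3 through them was chosen after seeing the data.

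The members and gene lists were chosen with earlier results of these data known. All 8 members are named with their values, pathway genes called in a line by up to 4 per role and line with the largest log2 fold changes, and for each member the 2 genes most like it. SMAD2, ACVR1B, TNFRSF8 and the genes of called line differences were named for their role, after their values were seen.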

Additional observations from a re-analysis of the deposited data

Results flagged for a closer look

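The I-BRD9 effect differed between the lines for 14 of the 51 tested pathway genes (27.5%, against 13.1% of all genes tested) and for the pseudogene TDGF1P3, by the test of the difference itself (effect in TCam-2 minus effect in 2102 EP, log2, edgeR adjusted p under 0.05). The difference was positive for WWTR1 (2.13), SKIL (1.26), TGIF1 (1.19), ACVR2B (1.18), SMAD7 (1.17), TDGF1P3 (1.10), PMEPA1 (1.00), FURIN (0.84) and SMAD3 (0.82). It was negative for CXCR4 (−6.90), HHEX (−3.37), OTX2 (−2.43), HAND1 (−2.21), NANOG (−2.17) and NCLN (−0.39). CXCR4, a chemokine receptor gene and endoderm marker, was at 3.90 ± 0.369 CPM with I-BRD9 and 129 ± 3.17 CPM with DMSO in TCam-2, and at 4.50 ± 1.15 CPM with I-BRD9 and 1.26 ± 0.553 CPM with DMSO in 2102 EP (SD, n = 3 each). FURIN, a protease gene whose product cleaves the NODAL precursor, was lower in 2102 EP (36.3 ± 2.73 CPM with I-BRD9 and 66.2 ± 2.13 CPM with DMSO) and did not pass in TCam-2 (49.3 ± 2.05 CPM with I-BRD9 and 50.4 ± 4.96 CPM with DMSO). SMAD3 did not pass when, in 2102 EP, replicate 2 (edgeR adjusted p = 0.0917) or 3 (0.0599) of I-BRD9 or replicate 2 of DMSO (0.0750) was left out, nor when, in TCam-2, replicate 1 (0.0721) or 2 (0.0808) of I-BRD9 or replicate 1 (0.0740) or 2 (0.0519) of DMSO was. HHEX did not pass when, in 2102 EP, replicate 2 of I-BRD9 (0.0659) or replicate 1 (0.0619) or 2 (0.0617) of DMSO was left out, when replicate 3 of I-BRD9 was in TCam-2 (0.0518), or with no low-count filter (0.0534). HHEX entered the test through the TCam-2 libraries with DMSO alone, the group in which it was high. No cause of these differences was tested.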

How the results depend on the processing

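In 2102 EP, NODAL, TDGF1, LEFTY1, LEFTY2, CER1 and FOXH1 were called lower under every alternative run, with log2 fold changes of −2.17 to −2.05 for NODAL and −4.75 to −4.38 for LEFTY2. The comparisons of the lines kept their direction and side in every fit that gave a value. With only the compared libraries, NODAL, LEFTY1, LEFTY2, CER1 and EOMES (I-BRD9 against DMSO in TCam-2), CER1 (lines under I-BRD9) and EOMES (lines under DMSO) had none, so that 2 of 8 members were called in TCam-2 and 5 between the lines under I-BRD9. The number of members called for the difference between the lines was 1 with no low-count filter, 2 with DESeq2, 1 with limma voom and 0 to 1 when 1 library was left out. LEFTY2, called with DESeq2 and limma voom, had 1 count with I-BRD9 and 0 with DMSO in TCam-2. TDGF1 passed with no filter (0.78), DESeq2 (0.78) and the pseudogenes summed (0.91). Genes at or near 0 counts changed sign with the fit: the difference for LEFTY1 was 0.60 with DESeq2, 1.83 with limma voom, 0.037 with the replicate block, 0.018 with a library-code block, 0.40 without 2102 EP, I-BRD9 replicate 2, 0.59 without TCam-2, DMSO replicate 2 and 2.37 with LEFTY1 and LEFTY2 summed, against −0.034. With that sum, the LEFTY2 change in TCam-2 was −2.01. The EOMES difference was −0.18 without 2102 EP, DMSO replicate 1 and −0.13 without TCam-2, I-BRD9 replicate 2, with 0.62 as its highest value when 1 library was left out, and that of LEFTY1 reached −0.33. The MIXL1 change in TCam-2 was −0.13 without I-BRD9 replicate 1, −0.0049 without DMSO replicate 2 and at most 0.27. The cause was not tested.

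Whether the replicate numbers pair the samples was not settled, since libraries of different numbers were not correlated with each other. Correlations of same-numbered deviations from the group means were −0.119, 0.0961 and −0.0788 in 2102 EP and 0.160, 0.0338 and 0.127 in TCam-2. The library-code block groups libraries by the order of their codes. It differs from the replicate numbers only in TCam-2 with DMSO, where replicates are exchanged. With the replicate block, 5512 genes were called in 2102 EP against 5739 without it, 4714 against 4959 in TCam-2 and 1836 against 2043 for the difference, and LEFTY1 in TCam-2 was called (adjusted p = 0.0431, edgeR). A fit of the compared libraries alone could not be made for the difference. Depth limits the antagonists in TCam-2, where the groups hold 0 to 5 counts.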
